A study of Sus scrofa with 4 samples.

Results

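The genes described here encode proteins that bind and hold maternal mRNA in oocytes and early embryos. They are ZAR1, ZAR1L, YBX2, CPEB1, PATL2, LIN28A, LIN28B, IGF2BP2 and IGF2BP3, 9 genes taken by symbol from the name column of the deposited transcript table. Of these, 8 had rows, 13 transcript rows in all, among 25560 gene names and 35395 rows in the whole table. PATL2, which represses translation in oocytes, had no row under that symbol and is not analysed here. Levels are given as FPKM, the authors' fragment values scaled for transcript length and sequencing depth, summed over the rows of a gene.

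RNA came from pig (Sus scrofa) embryos at the 4-cell stage. Small interfering RNA (siRNA) was injected into the cytoplasm, a treatment that the labels give for the labelled knockdowns alone. There were 2 libraries labelled TFAP2C knockdown (titled SiTF, genotype TFAP2C KD, siRNA injection) and 2 libraries labelled control (genotype and treatment both given as control). TFAP2C is a transcription factor of the AP-2 family. The labels do not say what the control embryos received, how many embryos made up a library, or whether 2 libraries of the same group stem from different pools of embryos. The p-values and standard errors (SE) below therefore reflect the spread among 4 libraries, and that spread may be technical. The fit (limma) also drew each gene's spread toward that of genes at a similar level. An SE is thus not the spread of that gene's own values alone.

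A growing oocyte makes far more mRNA than it translates at once and keeps it, with short poly(A) tails and bound by repressing proteins, until meiotic maturation or the first cleavages. Activation lengthens the tail and recruits ribosomes, while much of the remaining stock is destroyed as the embryonic genome takes over. In the pig that change comes around the 4-cell stage. ZAR1 and ZAR1L are zinc-finger proteins that bind stored mRNA; YBX2 is the germ-cell cold-shock-domain protein that packages it. CPEB1 binds the cytoplasmic polyadenylation element, LIN28A and LIN28B block maturation of the let-7 microRNA, and IGF2BP2 and IGF2BP3 bind and stabilise mRNAs.

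The labels could not be checked with the targeted gene. TFAP2C had 0.448 and 3.11 FPKM under labelled knockdowns 1 and 2, against 14.7 and 7.78 FPKM under labelled controls 1 and 2, and it missed the threshold (limma, Benjamini-Hochberg adjusted p = 0.0745). The ratio of coverage to FPKM is a library constant in the table, 6.07 and 8.83 in labelled knockdowns 1 and 2 and 6.69 and 7.03 in labelled controls 1 and 2. The TFAP2C row instead carries 6.69 and 7.03 under the labelled knockdowns and 6.07 and 8.83 under the labelled controls, so the ratios of the 2 groups stand exchanged in this row. Among rows with at least 1 FPKM no other row left its constant by more than 0.2%, and none of the member rows did. Every direction below is therefore labelled knockdown minus labelled control, and whether the labels mark a knockdown cannot be told from this row.

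The whole set of libraries differed in more than these genes. Of 9850 genes tested, 503 (5.11%) were higher and 144 (1.46%) lower in the labelled knockdowns (limma, Benjamini-Hochberg adjusted p under 0.05), with a median log2 fold change of -0.13. The 13 protein genes of the mitochondrial genome took 39.9% and 26.9% of TPM (the authors' length-scaled values with an equal sum in every library) in the labelled knockdowns, against 18.5% and 24.1% in the labelled controls. Listed oocyte and early-embryo transcripts summed to 5040 and 6904 FPKM in the labelled knockdowns, against 10157 and 9790 FPKM in the labelled controls. BTG4 and DNMT1 were the most abundant of them. The 25 cumulus and granulosa markers with rows summed to 30.8 and 25.1 FPKM in the labelled knockdowns, against 26.5 and 19.1 FPKM in the labelled controls, and 5 of the 25, among them AMH and NR5A1, were at 0 in all 4 libraries. The part of these differences in the results below was not tested.

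ZAR1L and LIN28A were lower in the libraries labelled knockdown, ZAR1L by 4.08-fold and LIN28A by 2.92-fold in group means. IGF2BP3 and CPEB1 stood lower by 2.55-fold and 2.28-fold but missed the threshold, and YBX2 stood lower by 1.58-fold and missed it too. LIN28B and ZAR1 had nearly equal means in both groups. Of the 7 members that reached a mean of 1 FPKM and were tested, 2 were therefore called lower and none higher, beside 1.46% and 5.11% of all tested genes. At an unadjusted p under 0.05 (limma) 4 members were lower and 0 higher, beside 1371 and 1378 of the 9850 tested genes. In 5 of the 7 the groups did not overlap and the labelled knockdowns were lower, which was also the case for 35.8% of all tested genes, and 24.7% were higher with no overlap. The members' median log2 fold change was -1.06, beside -0.13 over all tested genes.

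**Figure D1:**
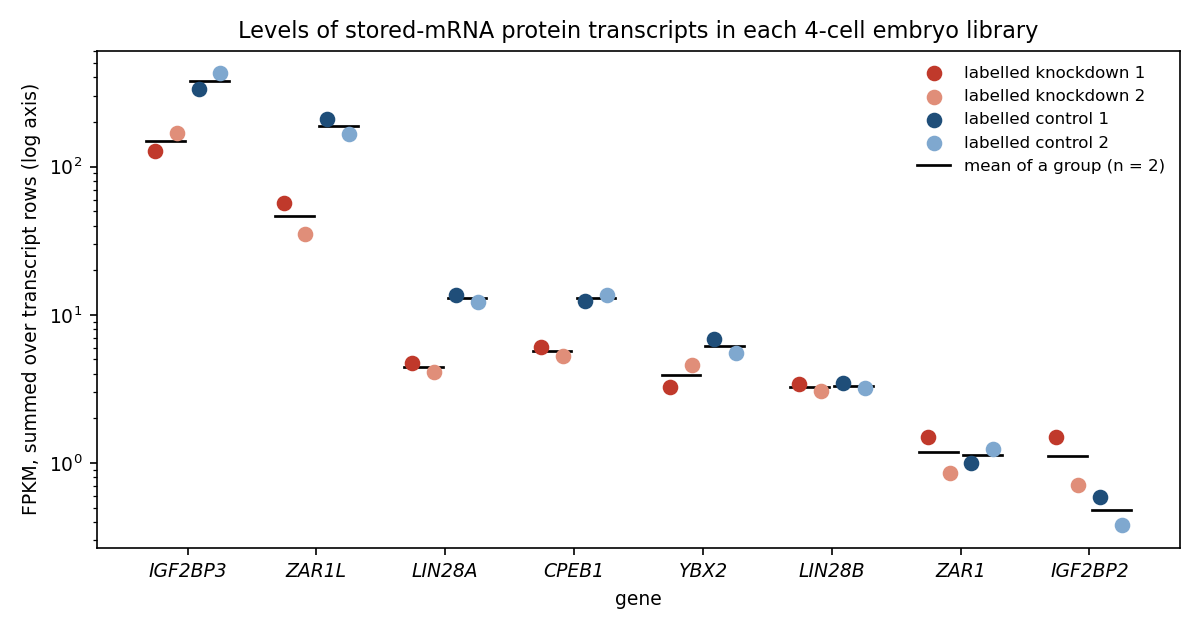
Level of each of the 8 genes in FPKM (log axis), 1 point per library, labelled knockdowns in red left of labelled controls in blue, with a line at each group mean (n = 2). The labelled knockdown points lie below the labelled control points for IGF2BP3, ZAR1L, LIN28A, CPEB1 and YBX2, the groups overlap for LIN28B and ZAR1, and IGF2BP2 lies higher in the labelled knockdowns.

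The members differed widely in level per length. In the labelled knockdowns the group means ran from IGF2BP3 (149 FPKM) and ZAR1L (46.1) through CPEB1 (5.67), LIN28A (4.43), YBX2 (3.91) and LIN28B (3.25) to ZAR1 (1.18) and IGF2BP2 (1.11). There LIN28A overlapped YBX2, YBX2 overlapped LIN28B, and ZAR1 overlapped IGF2BP2. In the labelled controls the order was IGF2BP3 (380 FPKM), ZAR1L (188), LIN28A (12.9), CPEB1 (12.9), YBX2 (6.20), LIN28B (3.33), ZAR1 (1.13) and IGF2BP2 (0.485). In that group only LIN28A and CPEB1 overlapped among neighbours. Among all tested genes IGF2BP3 stood at percentiles 94.9 and 96.4 in the labelled knockdowns, against 98.3 and 98.9 in the labelled controls.

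The zinc-finger pair was unequal in level. ZAR1L (gene ID 100156191, chromosome 11, 8795478 to 8805876, Sscrofa11.1) had 57.3 and 35.0 FPKM in labelled knockdowns 1 and 2, against 210 and 166 FPKM in labelled controls 1 and 2. Both labelled knockdowns lay well below both labelled controls. The means were 46.1 ± 15.8 FPKM in the labelled knockdowns and 188 ± 31.3 FPKM in the labelled controls (SD, n = 2 each). The log2 fold change, on the log2(FPKM + 1) scale, was -2.04 (SE 0.34; limma, Benjamini-Hochberg adjusted p = 0.0318). That was the 29th lowest fold change of the 9850 genes. The call held without labelled control 2 (adjusted p = 0.0472, limma) and was lost without labelled control 1 (0.115), labelled knockdown 1 (0.128) or labelled knockdown 2 (0.109).

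ZAR1L had 3 rows, all protein-coding models. The first, XM_021065180.1, carried 92.5% and 89.1% of the gene's FPKM in the labelled knockdowns and 92.6% and 96.0% in the labelled controls. The division among rows was thus similar in all 4 libraries while the sum was not. Mean read depth over that row was 322 and 275 per base in the labelled knockdowns, against 1301 and 1120 in the labelled controls.

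ZAR1 (gene ID 574050, chromosome 8, 38386520 to 38391618), the founding member of the pair and a maternal-effect gene in mouse, had 1.51 and 0.853 FPKM in the labelled knockdowns, against 1.00 and 1.25 FPKM in the labelled controls. The groups overlapped, with the labelled knockdowns holding both the highest and the lowest value. Its log2 fold change was 0.023 (SE 0.30; limma, adjusted p = 0.969), with a sign that turned with TPM (-0.17) and without labelled control 1 or labelled knockdown 1 (-0.06 and -0.20). Read depth was 6.70 to 9.15 per base, on 1 row where RefSeq lists 2 transcripts. ZAR1L exceeded ZAR1 by 38.0 and 41.0 times in the labelled knockdowns, against 210 and 133 times in the labelled controls.

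**Figure D2:**
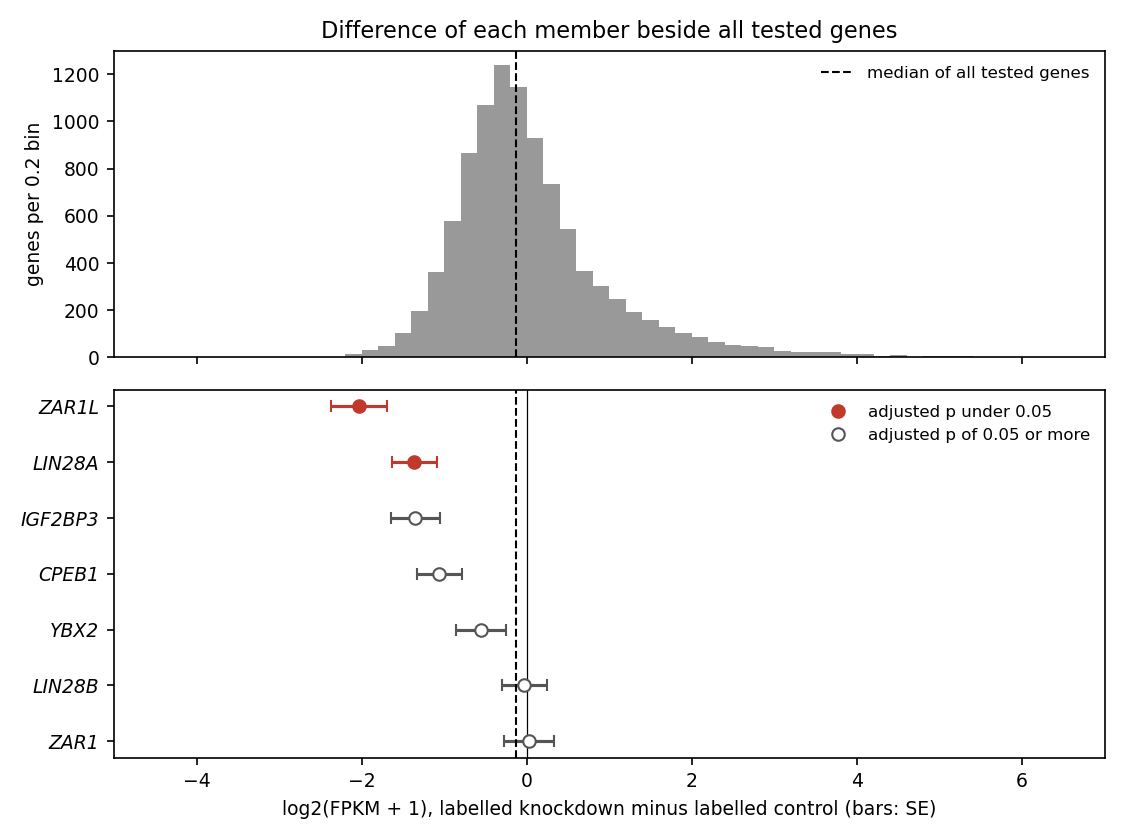
Top, number of tested genes per 0.2-wide bin of log2 difference (labelled knockdown minus labelled control, log2(FPKM + 1)); bottom, the same difference for the 7 tested members with SE bars, filled red where the adjusted p was under 0.05 and open otherwise, with the all-gene median dashed. ZAR1L (-2.04) and LIN28A (-1.36) are the filled points, and ZAR1 and LIN28B lie near 0.

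The LIN28 paralogs differed in how they stood between the groups. LIN28A (gene ID 100142662, chromosome 6, 83806178 to 83818550), which in mammals marks pluripotent cells and growing oocytes, had 4.74 and 4.12 FPKM in the labelled knockdowns, against 13.6 and 12.2 FPKM in the labelled controls. The values within each group were close and the groups lay far apart. The means were 4.43 ± 0.434 FPKM in the labelled knockdowns and 12.9 ± 0.992 FPKM in the labelled controls (SD, n = 2 each). Its log2 fold change was -1.36 (SE 0.27; limma, Benjamini-Hochberg adjusted p = 0.0454). The call was close to the threshold and was lost when any 1 of the 4 libraries was left out (adjusted p = 0.126 to 0.206, limma), with a pseudocount of 0.1 (0.0552) and after median-ratio scaling (0.0616). Its single row had a read depth of 28.8 and 36.4 per base in the labelled knockdowns, against 91.3 and 86.1 in the labelled controls.

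LIN28B (gene ID 100738513, chromosome 1, 71173291 to 71296131), the paralog best known from fetal tissues and tumours, had 3.42 and 3.08 FPKM in the labelled knockdowns, against 3.47 and 3.20 FPKM in the labelled controls. The groups overlapped, and all 4 values were close. Its log2 fold change was -0.03 (SE 0.27; limma, adjusted p = 0.957), and it turned positive after median-ratio scaling (0.10) and without labelled control 1 (0.016) or labelled knockdown 2 (0.031). A ratio taken within a library does not depend on the scaling between libraries. LIN28A exceeded LIN28B by 1.38 and 1.34 times in the labelled knockdowns, against 3.94 and 3.82 times in the labelled controls. The ratio was lower in both labelled knockdowns than in either labelled control, and with 2 libraries a group an exact permutation test cannot give a two-sided p below 0.333.

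**Figure D3:**
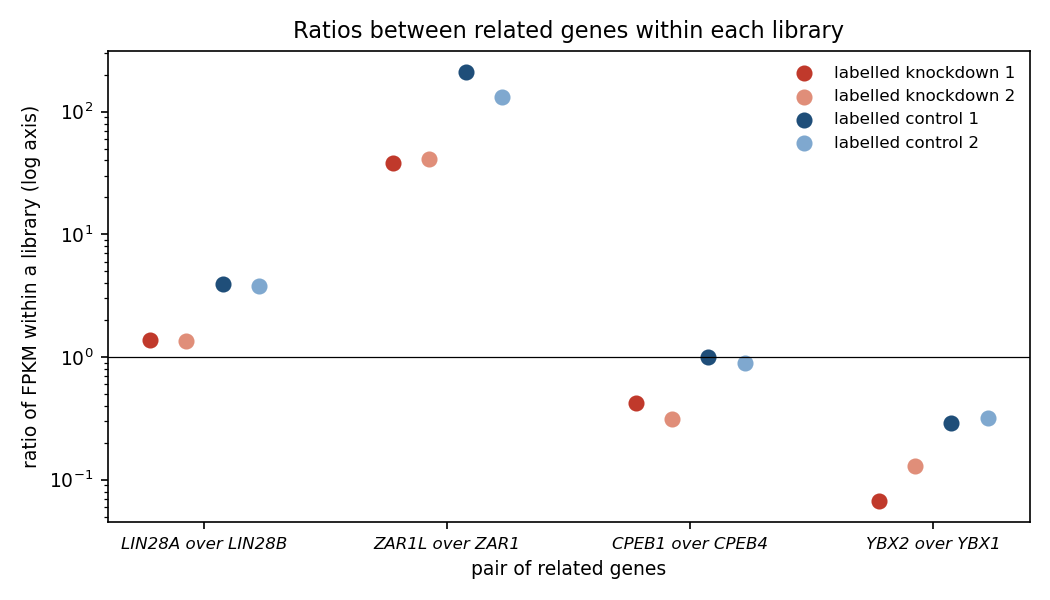
Ratio of FPKM between related genes within each library (log axis), labelled knockdowns in red left of labelled controls in blue. For LIN28A over LIN28B the labelled knockdowns stand at 1.38 and 1.34 and the labelled controls at 3.94 and 3.82. The other 3 pairs are also lower in both labelled knockdowns. Each pair sets a member that stood lower over a gene with a nearly equal or higher mean, so this partly follows from the choice of pairs. YBX2 over YBX3, not drawn, overlapped between the groups.

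IGF2BP3 (gene ID 100621977, chromosome 9, 92104786 to 92272264) was the most abundant member in every library. It had 128 and 170 FPKM in the labelled knockdowns, against 333 and 426 FPKM in the labelled controls. The groups did not overlap. The log2 fold change was -1.35 (SE 0.30), and it missed the threshold (limma, Benjamini-Hochberg adjusted p = 0.0572). With TPM in place of FPKM it passed (adjusted p = 0.0498), where the median of all genes was -0.39.

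The 2 rows of IGF2BP3 divided the gene differently in 1 library. RefSeq lists 6 transcripts, and the table gives 2 rows, the protein-coding model XM_021063451.1 and the non-coding model XR_002335867.1. The coding row had 64.8 FPKM in labelled knockdown 1 and is listed at 0 in labelled knockdown 2, against 159 and 206 FPKM in the labelled controls. The non-coding row had 62.8 and 170 FPKM in the labelled knockdowns, against 174 and 220 FPKM in the labelled controls. Labelled knockdown 2 thus put all of the gene's FPKM on the non-coding row, while the other 3 libraries put between 49.3% and 52.2% there. Taken alone, neither row passed in the fit over transcript rows (limma, adjusted p = 0.351 for the coding and 0.436 for the non-coding row). That fit called 0.303% of 11230 rows lower and 0.623% higher, and none of the 11 tested member rows. Of 507 tested genes with both kinds of row and a value in every library, 50 (9.86%) had their coding rows at 0 in exactly 1 library, a question asked after these values were seen.

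IGF2BP2 (gene ID 100157731, chromosome 13, 123485619 to 123650050) averaged under 1 FPKM over the 4 libraries and was not tested. It had 1.51 and 0.715 FPKM in the labelled knockdowns, against 0.590 and 0.380 FPKM in the labelled controls. Both labelled knockdowns were above both labelled controls, with labelled knockdown 1 the highest, at a read depth of 2.67 to 6.90 per base on the main row. IGF2BP1, the remaining paralog, had 1.98 and 0.874 FPKM in the labelled knockdowns, against 0.0232 FPKM in labelled control 2 and a listed 0 in labelled control 1, and was too low to test.

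CPEB1 (gene ID 100048944, chromosome 7, 52329054 to 52382408), the regulator of tail lengthening, had 6.10 and 5.23 FPKM in the labelled knockdowns, against 12.3 and 13.5 FPKM in the labelled controls. The groups did not overlap and the spread within each was small. Its log2 fold change was -1.06 (SE 0.27), and it missed the threshold (limma, Benjamini-Hochberg adjusted p = 0.0776). CPEB2 had 27.1 and 8.21 FPKM in the labelled knockdowns, against 5.69 and 7.21 FPKM in the labelled controls (adjusted p = 0.242, limma). CPEB3 had a log2 fold change of 0.14 and CPEB4 of 0.17, with adjusted p = 0.772 and 0.716 (limma). CPEB1 stood at 0.425 and 0.312 of the level of CPEB4 in the labelled knockdowns, against 0.993 and 0.899 in the labelled controls.

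YBX2 (gene ID 100519387, chromosome 12, 52635383 to 52642443), whose mouse counterpart MSY2 is among the abundant RNA-binding proteins of the oocyte, had 3.25 and 4.58 FPKM in the labelled knockdowns, against 6.86 and 5.54 FPKM in the labelled controls. The groups did not overlap, but the gap was smaller than the spread within either group. The log2 fold change was -0.56 (SE 0.30; limma, adjusted p = 0.283).

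The 2 rows of YBX2 stood in opposite directions. The protein-coding model XM_003131938.4 had 0.522 and 0.743 FPKM in the labelled knockdowns, against 6.86 and 5.54 FPKM in the labelled controls. The non-coding model XR_002337355.1 had 2.72 and 3.84 FPKM in the labelled knockdowns and is listed at 0 in both labelled controls. The coding row therefore held 16.1% and 16.2% of YBX2 in the labelled knockdowns, against all of it in the labelled controls. In the fit over transcript rows the coding row had a log2 fold change of -2.14 (SE 0.28) and the non-coding row 2.09 (SE 0.34), and neither passed (limma, adjusted p = 0.0864 and 0.119). Read depth over the coding row was 3.17 and 6.56 per base in the labelled knockdowns, against 45.9 and 38.9 in the labelled controls, and over the non-coding row 16.5 and 33.9 in the labelled knockdowns. Of the 507 tested genes with both kinds of row, 12 (2.37%), YBX2 among them, had most of their FPKM on non-coding rows in both labelled knockdowns and on coding rows in both labelled controls, and 10 (1.97%) showed the reverse, a count also made after these values were seen. Rows that share exons are divided by the authors' quantification, which the table does not let one retrace.

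**Figure D4:**
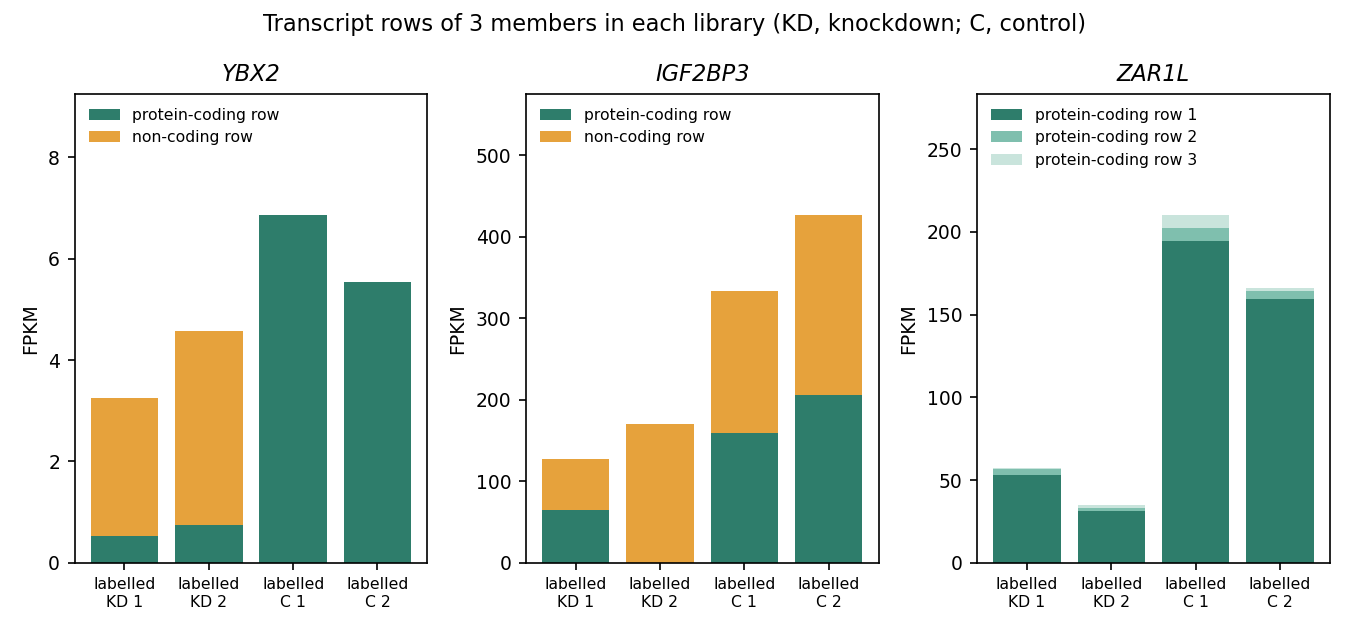
FPKM of each transcript row, stacked, in the 4 libraries for YBX2, IGF2BP3 and ZAR1L (each panel has its own axis from 0). YBX2 is mostly non-coding in both labelled knockdowns and wholly coding in both labelled controls, IGF2BP3 has no coding part in labelled knockdown 2 alone, and ZAR1L is mainly its first row in every library.

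The other cold-shock-domain genes stood otherwise. YBX1, the somatic counterpart of YBX2, had 48.3 and 35.3 FPKM in the labelled knockdowns, against 23.6 and 17.5 FPKM in the labelled controls (log2 fold change 0.99, SE 0.31; limma, adjusted p = 0.115). YBX2 amounted to 0.0672 and 0.130 of YBX1 in the labelled knockdowns, against 0.290 and 0.317 in the labelled controls. YBX3 overlapped between the groups, at 2.11 and 7.18 FPKM in the labelled knockdowns and 8.66 and 4.23 FPKM in the labelled controls. The ratio of YBX2 to YBX3 overlapped too, at 1.54 and 0.638 in the labelled knockdowns and 0.792 and 1.31 in the labelled controls. PATL1, the paralog of PATL2 that links repression to decapping, had 7.52 and 9.01 FPKM in the labelled knockdowns, against 8.72 and 8.79 FPKM in the labelled controls.

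Of 36 partner genes that hold or silence stored mRNA 30 were tested. Of these, 1 (3.33%) was called lower and none higher, beside 1.46% and 5.11% of all tested genes. Without adjustment (limma, p under 0.05) 3 were lower and 4 higher, beside 1371 and 1378 of the 9850 tested genes. The median log2 fold change was -0.08 (0.05 after median-ratio scaling and -0.35 with TPM). The called gene was EDC3, a scaffold of the decapping complex in P-bodies. It had 4.76 and 3.46 FPKM in the labelled knockdowns, against 12.5 and 14.2 FPKM in the labelled controls (log2 fold change -1.50, SE 0.29; limma, Benjamini-Hochberg adjusted p = 0.0437), a call lost without any 1 of the 4 libraries (0.132 to 0.187, limma), with a pseudocount of 0.1 (0.0535) and after median-ratio scaling (0.0593). Among the most abundant of this list were FXR1, a relative of the fragile X protein, and EIF4E, the cap-binding factor. EIF4E had 81.2 and 83.0 FPKM in the labelled knockdowns, against 61.6 and 61.7 FPKM in the labelled controls, and missed the threshold (adjusted p = 0.343, limma). FXR1 overlapped between the groups, with a fold change of -0.02 on the log2 scale.

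Of 34 genes listed for polyadenylation, poly(A) binding and tail uridylation, 29 had rows, none of them an enzyme of uridylation. The genes tested therefore say nothing of uridylation. Limma called none of the 23 tested, beside 1.46% lower and 5.11% higher of all tested genes. Without adjustment (limma, p under 0.05) 2 were higher and 1 lower, beside 1378 and 1371 of the 9850 tested genes. The median log2 fold change was 0.14 (-0.14 with TPM). PAIP1, which bridges poly(A)-binding protein to translation initiation, was the most abundant, at 704 and 1239 FPKM in the labelled knockdowns, against 999 and 909 FPKM in the labelled controls. AURKA, the kinase that acts on CPEB1 in frog oocytes, had 58.4 and 44.0 FPKM in the labelled knockdowns, against 98.8 and 70.1 FPKM in the labelled controls (adjusted p = 0.212, limma). The poly(A) polymerase PAPOLG had 50.3 and 30.6 FPKM in the labelled knockdowns, against 18.2 and 29.7 FPKM in the labelled controls (adjusted p = 0.272, limma).

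Of 41 other RNA-binding proteins of germ cells 26 were tested and limma called none, beside 1.46% lower and 5.11% higher of all tested genes. Unadjusted, 3 were higher and 3 lower (limma, p under 0.05), beside 1378 and 1371 of the 9850 tested genes. The median of the 26 was -0.14. BICC1, a translational repressor, had 72.2 and 83.1 FPKM in the labelled knockdowns, against 113 and 116 FPKM in the labelled controls (adjusted p = 0.226, limma). DAZL, which promotes translation in germ cells, overlapped at 44.2 and 99.0 FPKM in the labelled knockdowns and 76.5 and 78.2 FPKM in the labelled controls. PIWIL1, an Argonaute-family protein of the piRNA pathway, had 18.4 and 35.8 FPKM in the labelled knockdowns, against 38.4 and 54.6 FPKM in the labelled controls (adjusted p = 0.247, limma).

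Of 27 genes of let-7 processing or textbook targets of let-7 or the IGF2BP proteins, 17 were tested, with a median of -0.18. Of these, 1 (5.88%) was called higher and none lower, beside 5.11% and 1.46% of all tested genes. At an unadjusted p under 0.05 (limma) 3 were higher and 3 lower, beside 1378 and 1371 of the 9850 tested genes. The called gene was MYCN, a growth-promoting transcription factor. It had 8.23 and 5.90 FPKM in the labelled knockdowns, against 1.20 FPKM in labelled control 2 and a listed 0 in labelled control 1 (log2 fold change 2.43, SE 0.45; limma, Benjamini-Hochberg adjusted p = 0.0397), and held its call without labelled control 2 (0.0129) but not without labelled control 1 or either labelled knockdown (0.102 to 0.246, limma), nor with a pseudocount of 0.1 (0.107). MYC had 44.1 and 21.5 FPKM in the labelled knockdowns, against 0.0362 and 7.93 FPKM in the labelled controls, and missed the threshold (adjusted p = 0.0990, limma). CDC34, a ubiquitin-conjugating enzyme, overlapped at 6.95 and 22.3 FPKM in the labelled knockdowns and 33.7 and 18.7 FPKM in the labelled controls.

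Of 19 tested transcripts listed for the oocyte and early embryo, 4 were called lower (WEE2, MOS, H1FOO and KPNA7). None was called higher, and the shares of all tested genes were 1.46% lower and 5.11% higher. All 19 had a negative fold change, as had 5671 of the 9850 tested genes. In 16 of the 19 the groups did not overlap and the labelled knockdowns were lower. That was also the case for 35.8% of all tested genes, and 24.7% were higher with no overlap. The median was -0.76 (-0.87 to -0.37 without 1 library). None of the 4 kept its call without labelled control 1 or without either labelled knockdown, and without labelled control 2 WEE2 and H1FOO kept theirs (limma, adjusted p = 0.0485 and 0.0450). BTG4, an adaptor for deadenylation and the most abundant of them, overlapped at 1501 and 2380 FPKM in the labelled knockdowns and 2392 and 2147 FPKM in the labelled controls. DNMT1, the maintenance DNA methyltransferase, had 1320 and 1770 FPKM in the labelled knockdowns, against 2232 and 2258 FPKM in the labelled controls (adjusted p = 0.263, limma). Of the 7 tested cumulus and granulosa markers NR5A2 alone was called, higher, beside 5.11% of all tested genes called higher. It had 6.47 and 4.68 FPKM in the labelled knockdowns, against 0.234 FPKM in labelled control 2 and a listed 0 in labelled control 1. NR5A2 is also expressed in early embryos, and its call held without labelled control 2 alone (0.0183, limma). INHBA, FST and GATA4, the most abundant markers of that list, had log2 fold changes of -0.42, -0.45 and -0.44 and did not pass (limma, adjusted p = 0.394, 0.598 and 0.490). In RNA from whole embryos, fewer cells of a type and less RNA per cell cannot be told apart.

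The genes most like IGF2BP3, the most abundant member, were taken by the root mean square difference of centred log2(FPKM + 1) over the 4 libraries, among 7177 genes with a symbol and a value above 0 in every library. The nearest were GPNMB (0.030), SLC35B2 (0.031) and BAIAP2 (0.042). GPNMB had 26.4 and 36.4 FPKM in the labelled knockdowns, against 73.0 and 95.6 FPKM in the labelled controls. With 4 libraries such likeness mainly restates the gap between the groups and the order within them.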

How the data were processed

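The tools named in the submitters' processing notes are StringTie 2.1.7, Bowtie2 2.3.5 and cutadapt, with the assembly Sscrofa11.1. Their roles, filters and annotation release are not stated there. Per the labels' protocols, a SMARTer mRNA-seq kit made the libraries from RNeasy-purified RNA. The deposited table gives, per transcript and library, FPKM and TPM as scaled by the authors, and deposited coverage, the mean read signal per base, unscaled. Read counts are not used here. Coverage over FPKM, if computed as StringTie does, gives aligned gigabases of 6.07 to 8.83 per library. An exact 0 can be a failed estimate, since the housekeeping gene RPL3 is also listed at 0 in some libraries.

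Rows were named from a RefSeq gene table of Sscrofa11.1 (32816 by accession, 4 by another version, 2305 by symbol, 270 by the file's name or ID), and members came out the same by the file's own names. FPKM was summed per gene. Genes that averaged 1 FPKM or more were tested with limma 3.58.1 in R 4.3.3 (eBayes with a trend) on log2(FPKM + 1), which understates changes of low genes, two-sided, with Benjamini-Hochberg adjustment over all 9850 genes and a threshold of 0.05. There were 2 residual degrees of freedom per gene before the eBayes step, which adds information from the other genes. Tested on simulated data, the procedure called none of the changes planted at a log2 size of 1 or 2, and 44.8% of those at 4. It made 32 calls there, against 503 higher and 144 lower in the real data. The real fit called ZAR1L at -2.04 and LIN28A at -1.36, so the simulated shares do not carry over to it. How often it misses changes of the members' sizes was not tested, and a missed threshold does not show equal levels. Named genes were the members, TFAP2C, the called genes and the 3 most abundant of each list, and the 3 genes nearest the most abundant member, of which a few are not reported here; the others named were chosen after their values were seen. The members and lists were chosen with earlier results of these data known. No list was tested as a set. Alternatives were another pseudocount, filters, scalings, row-wise testing, naming, a replicate block and leaving out each library.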

Additional observations from a re-analysis of the deposited data

How the results depend on the processing

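The count of members called was 2 and rose to 3 with TPM in place of FPKM. It became 1 with a pseudocount of 0.1 or median-ratio scaling. It fell to 0 with no filter on low values, with transcript rows in place of gene sums or with the replicate block. Leaving out 1 library gave 0 to 1. In each setting that gave 0, limma had 4 members at an unadjusted p under 0.05. Over all genes, 503 were higher and 144 lower; a pseudocount of 0.1 gave 312 and 62, no filter 0 and 0 (1930 and 1766 unadjusted, limma), transcript rows 70 and 34, and the replicate block 125 and 8. With the replicate block EDC3, MYCN, NR5A2, WEE2, MOS, H1FOO and KPNA7 also lost their calls (limma, adjusted p = 0.0511 to 0.0908). A minimum mean of 5 FPKM gave 320 higher, median-ratio scaling 79 lower and TPM 268 lower. Leaving out 1 library gave 0 to 463 higher and 0 to 42 lower, the 0 without labelled knockdown 1 (891 and 828 unadjusted, limma) and without labelled knockdown 2 (1381 and 1285). ZAR1L, YBX2, CPEB1, LIN28A and IGF2BP3 kept a negative fold change in each of 12 alternatives, the crossed pairing aside. ZAR1 changed sign with TPM (-0.17) and without 1 library (-0.20 to 0.24), and LIN28B after median-ratio scaling (0.10) and without 1 library (-0.087 to 0.031). The cause of these changes was not tested. Same-numbered libraries share only a number: the deviations of the number 1 libraries correlated at r = -0.143 across genes. The crossed pairing, added after seeing the data, called 611 genes higher, 119 lower and 1 member. Depth limits ZAR1 and IGF2BP2, with under 10 reads per base in every library.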
